A study of Mus musculus with 574 samples.

Results

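Mouse bone marrow GMPs, the progenitors of granulocytes and macrophages, were compared 14 days and 10 days after a dose of 5-fluorouracil (5-FU). The cells compared carry those days in their column names, and each had 50000 or more reads in genes and reads of 1000 or more genes. They were 93 of 96 cells on day 10 and 47 of 96 on day 14, together 140 of the 500 cells kept in the whole series. The other 49 day 14 cells each had fewer than 50000 reads in genes. All mice were C57Bl/6 and 6 to 12 weeks old, and the dose was 150 mg/kg, with PBS as the control. The 6 sets of cells were 1 each on days 0, 10, 12 and 14 and 2 on day 8, here set 1 and set 2, and every label gives the treatment as 5-FU, day 0 included. Cells were sorted 1 to a well from a gate that required c-Kit, CD34 and FcγR and excluded Sca-1 and lineage antigens, and their libraries were made with Smart-seq2, which covers whole transcripts and does not tag single molecules. The labels do not say how many mice gave a set, or which sets came from crushed and which from flushed bones. Day 10 and day 14 are therefore 1 set each, and the day cannot be told apart from the mice, the preparation or the plate.

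GMPs give rise to neutrophils and monocytes. As they mature they make the proteases and peroxidase of the primary granules, and the transcription factors Irf8 on the monocyte side and Gfi1 and Cebpe on the granulocyte side separate their fates. 5-FU blocks thymidylate synthase, enters RNA and DNA and kills dividing cells, after which the marrow is rebuilt from surviving stem and progenitor cells.

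The day 14 libraries were the shallowest. Gene reads of the median kept cell numbered 224022 on day 10 but 79451 on day 14, and set medians reached 289938. The gene Slc34a2, which encodes a phosphate transporter of epithelia, took 13.4% of the gene reads of the median day 10 cell and 31.2% of the median day 14 cell, against 9.68% and 16.3% in the day 8 sets. Each cell was therefore thinned at random to 50000 reads, and Slc34a2 was left out of totals. After thinning the median cell had reads of 5502 genes on day 10 and 4682 on day 14. Reads in genes other than Slc34a2 stood at 52.4 per spike-in read on day 10 and 28 on day 14, against 70.3 and 58 in the day 8 sets. The summed day 10 set held 3992774 reads and the day 14 set 1451331. Levels are given as CPM, the usual scaling of counts to the total reads of a set, here with Slc34a2 left out of the total. The Y-linked gene Eif2s3y stood at 99.7 CPM on day 10 against 81.3 CPM on day 14, and Xist at 0.258 and 0 CPM, while on days 0 and 12 Eif2s3y measured 0.816 and 1.22 CPM and Xist at 254 and 206 CPM. Days 8, 10 and 14 thus had the pattern of male mice and days 0 and 12 that of female mice, so every comparison below of day 10 or 14 with day 0 or 12 is also one between the sexes, and time and sex cannot be told apart there.

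**Figure D1:**
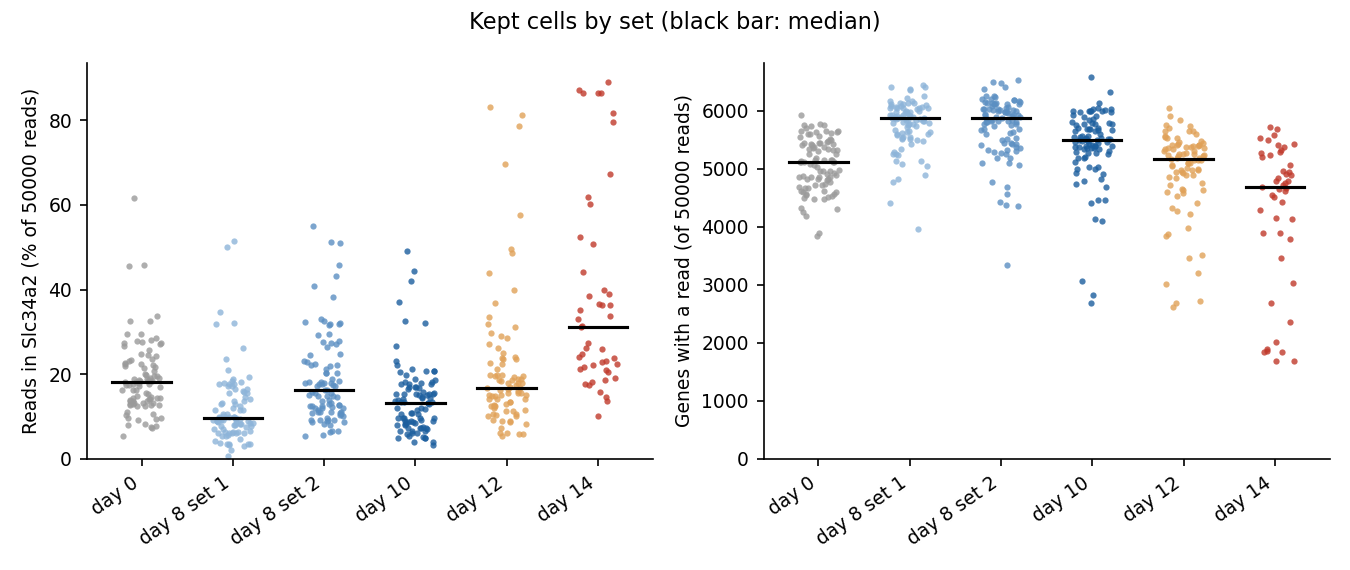
Each point is a kept cell, by set; the left axis gives the share of 50000 reads that fell in Slc34a2 (percent) and the right axis the number of genes with a read, and black bars are medians. On day 14 the Slc34a2 share reached 89.2% and the lowest number of genes was 1685.

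The cells of each set were summed, and the sums were tested with edgeR's quasi-likelihood test, in which the spread between the day 8 sets was the only measure of error. Of 12277 genes tested, 0 were higher and 0 lower on day 14 at a Benjamini-Hochberg adjusted p of 0.05 (0%), and the smallest adjusted p was 0.293. At an unadjusted p under 0.05, 1053 genes were higher (8.58%) and 701 lower (5.71%). limma voom also called 0 in each direction, and the DESeq2 Wald test called 75 higher and 7 lower. The absence of calls carries no information on stability: in simulated sums the same test called 0 of 50 genes at a log2 fold change of 2 and 0 of 50 at −2. All fold changes below are edgeR values on the log2 scale with their standard error (SE), and no gene named passed that test.

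Differences were therefore set beside the spread between the 2 day 8 sets. A gene was counted as beyond this yardstick where its difference between days 14 and 10, in log2(CPM + 1), was larger than its own difference between the day 8 sets. It also had to exceed the 95th percentile of that day 8 difference among genes of like level. By this rule 1460 genes were higher on day 14 (11.9%) and 1147 were lower (9.34%). The median absolute difference was 0.48 between days 14 and 10 and 0.293 between the day 8 sets, and 8148 of the 12277 genes differed more between the days than between the sets. The yardstick is a description of 4 sets and not a test. The day 14 sum held 1451331 reads from 47 cells, and the day 8 sums held 3957016 from 90 and 3763945 from 93. The difference between days therefore carries more counting error than that between the day 8 sets, and these counts and medians include it. With 47 cells taken from every set, 916 genes were beyond it on the higher side and 720 on the lower.

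**Figure D2:**
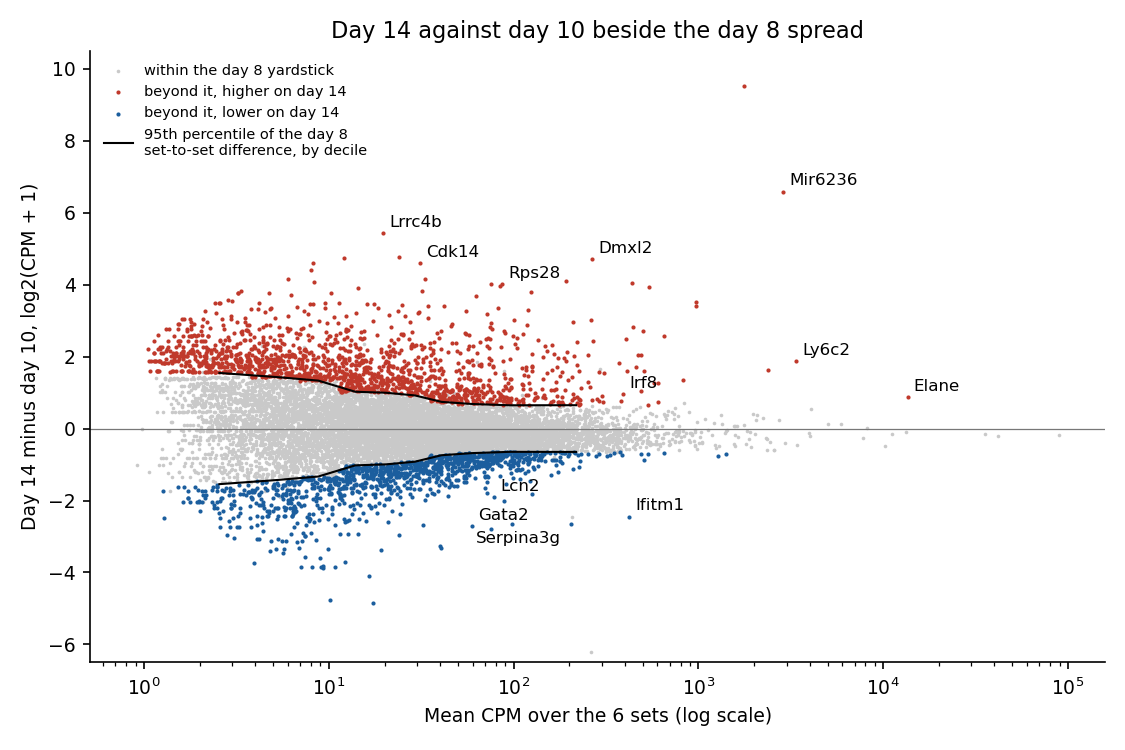
Each point is a tested gene, with its mean CPM over the 6 sets on a log axis and its day 14 minus day 10 difference in log2(CPM + 1); red and blue points are beyond the day 8 yardstick and black lines give its 95th percentile by decile of level. Ly6c2, Irf8 and Elane lie above the lines and Ifitm1, Serpina3g, Lcn2 and Gata2 below them.

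Transcripts of the sort antigens were present on both days. Kit, the receptor for stem cell factor, stood at 100 CPM on day 10 against 131 CPM on day 14. Cd34 stood at 441 and 415 CPM, and the FcγR gene Fcgr3 at 411 and 422 CPM. Ly6a, which encodes Sca-1 and was excluded by the gate, stood at 8.25 and 17.4 CPM, a log2 fold change of 1.08 that was 0.07 among cells with at most 25% of reads in Slc34a2. Of the 5 genes listed for the gate, 0 were beyond the yardstick. The primary granule genes Mpo, Elane, Prtn3 and Ctsg had reads in all 93 day 10 cells and all 47 day 14 cells. The granulocyte priming list took 9.06% of the reads of the median day 10 cell (range 0.269% to 21.6%) and 7.84% on day 14 (0.0789% to 19.8%), so that on both days some cells of the gate had little of it.

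Monocyte genes were higher on day 14. Of 14 tested genes on the monocyte list, 13 had a higher value on day 14, with 7 beyond the yardstick, and 1, Ccr2, was beyond it on the lower side. Over all genes tested 11.9% were beyond it on the higher side and 9.34% on the lower. The median log2 fold change of the list was 0.87, against −0.02 over all genes tested and −0.71 for the same list between the day 8 sets. The 2 sets of day 8 thus differed on this list by nearly as much as the 2 days. The summed level of the list was 2808 CPM on day 10 and 7610 CPM on day 14. It was 1745 and 941 CPM in the day 8 sets, 7210 CPM on day 12 and 7946 CPM on day 0, so that the day 14 and day 12 sets were close to day 0 and the day 10 set lay between them and day 8.

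Ly6c2, which encodes the surface antigen Ly6C of monocytes, carried most of that sum. Its level was 6001 CPM on day 0, 834 and 344 CPM in the day 8 sets, 1672 CPM on day 10, 5283 CPM on day 12 and 6144 CPM on day 14. Its log2 fold change was 1.88 (SE 0.64, adjusted p = 0.317 by edgeR). The share of cells with a read was the same on both days, 85 of 93 (91.4%, exact 95% interval 83.8 to 96.2) and 43 of 47 (91.5%, 79.6 to 97.6). Its median among cells with a read was 32 reads on day 10 and 159 on day 14 in the thinned cells. Since most cells had a read on both days, the share with a read says little on how many cells used the gene.

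Irf8, the interferon regulatory factor that directs progenitors towards monocytes, stood at 599 CPM on day 0, at 208 and 127 CPM on day 8, 292 CPM on day 10, 546 CPM on day 12 and 568 CPM on day 14. The log2 fold change was 0.96 (SE 0.40, adjusted p = 0.366 by edgeR). Csf1r, the receptor for macrophage colony-stimulating factor, stood at 173 CPM on day 0, at 43.1 and 35.1 CPM on day 8, 95.9 CPM on day 10, 154 CPM on day 12 and 166 CPM on day 14. All 3 genes had their lowest values on day 8 and were at or near the day 0 level by day 14. Ms4a6c stood at 81.4 CPM on day 10 against 138 CPM on day 14, and Cx3cr1, the fractalkine receptor, at 7.73 and 27.6 CPM. Ly86, which encodes MD-1, stood at 37.4 and 116 CPM but was not beyond the yardstick, since the day 8 sets differed by more (37.5 and 8.03 CPM). Ctsh, a lysosomal cysteine protease, was beyond it, at 17.8 and 69 CPM. Ccr2, the chemokine receptor of emigrating monocytes, went the other way, from 154 to 69 CPM.

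Across single cells the monocyte list took a median of 0.109% of reads on day 10 (quartiles 0.0438% and 0.317%) and 0.361% on day 14 (0.0919% and 1.01%). The medians in the day 8 sets were 0.0447% and 0.0411%. The quartile ranges of the days overlapped, and the day 14 cells covered the wider range, from 0% to 3.32%.

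Granule genes as a group did not share that direction. Of 13 genes on the granulocyte priming list, 4 had a higher and 9 a lower value on day 14. Elane and Fcnb, 2 of the 13, were higher beyond the yardstick, beside 11.9% of all genes tested. The median log2 fold change was −0.16, or 0.0020 among cells with at most 25% of reads in Slc34a2, and the summed level was 92350 CPM on day 10 and 91460 CPM on day 14. Elane, which encodes neutrophil elastase, stood at 20880 CPM on day 0, at 2898 and 3312 CPM on day 8, 12730 CPM on day 10, 18220 CPM on day 12 and 23300 CPM on day 14. Its log2 fold change was 0.87 (SE 0.34, adjusted p = 0.349 by edgeR). The lectin gene Fcnb stood at 7.47 and 24 CPM. Mpo, myeloperoxidase and the most abundant of the list, stood at 59670 CPM on day 0, at 23810 and 15660 CPM on day 8, 51090 CPM on day 10, 57250 CPM on day 12 and 44050 CPM on day 14. Its log2 fold change of −0.21 (SE 0.44) lay within the day 8 spread. Prtn3, proteinase 3, differed by 0.12 and Ctsg, cathepsin G, by −0.16. Mpo, Elane and Ly6c2 were all lower on day 10 than on day 0, a comparison that is also one between the sexes.

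Elane and Ly6c2 are the genes of these lists with the highest levels that were beyond the yardstick, and both have the letters of a PU.1 site shortly before their start. PU.1, the product of Spi1, is a transcription factor of all myeloid progenitors. The upstream bases are given 5′ to 3′ on the strand of the gene, from the RefSeq promoter table (GRCm38.p6), without bases inside the annotated gene, and capitals mark the match. The Elane stretch lies at chr10:79886192-79886246 on the plus strand, and the Ly6c2 stretch at chr15:75111972-75112091 on the minus strand.
Elane: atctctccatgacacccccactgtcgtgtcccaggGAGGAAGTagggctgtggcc
Ly6c2: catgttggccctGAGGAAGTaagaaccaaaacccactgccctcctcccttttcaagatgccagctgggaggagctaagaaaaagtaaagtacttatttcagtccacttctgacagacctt
On either strand GAGGAAGT occurred in the promoter window of 4 of 15 monocyte genes (26.7%) and 3 of 11 granulocyte priming genes (27.3%), against 997 of 27025 genes in the table (3.69%). The window runs from 250 bases before to 50 after the start. In the other lists searched the share was 12.0% (ribosome biogenesis), 5.56% (mitosis), 2.78% (DNA replication) and otherwise 0%. This was 1 of several motifs searched, and that of C/EBP, TTGCGCAA, occurred in 0 of 15 and 0 of 11. A match is a description of letters and not a measured binding site, and a part of PU.1 in these differences was not tested. Spi1 itself stood at 371 CPM on day 10 against 274 CPM on day 14, within the day 8 spread.

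**Figure D3:**
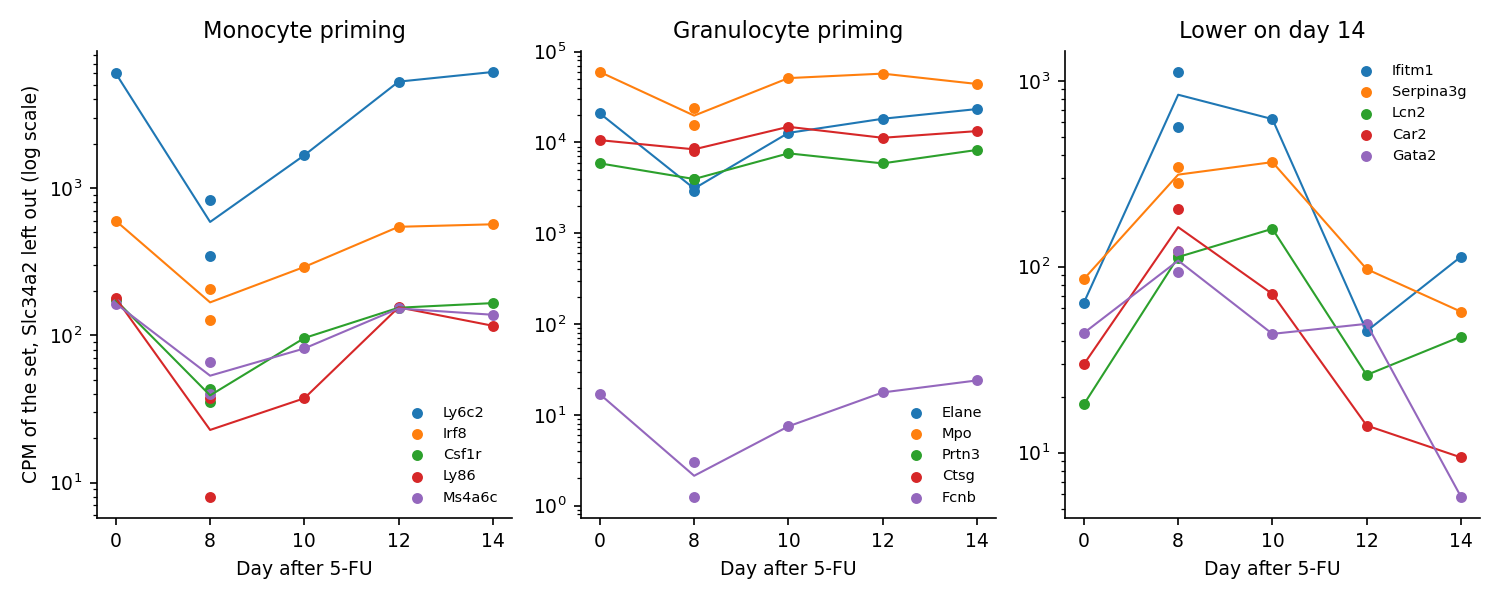
Levels of 15 genes in CPM (log axis) by day after 5-FU; points are sets, with 2 on day 8, and lines join the day means. Ly6c2, Irf8 and Csf1r have their lowest points on day 8 and are near day 0 by day 14, Mpo, Prtn3 and Ctsg differ little between days 10 and 14, and the genes on the right are lower on day 14 than on day 10.

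The granulocyte transcription factors did not move beyond the day 8 spread. Gfi1 stood at 62.4 CPM on day 10 against 50.8 CPM on day 14, Cebpe at 37.1 and 28.3 CPM, and Cebpa, needed for GMPs to form, at 88.1 and 82.8 CPM. Cells with reads of both Irf8 and Gfi1 were 40 of 93 on day 10 (43%, exact 95% interval 32.8 to 53.7) and 14 of 47 on day 14 (29.8%, 17.3 to 44.9). Cells with Irf8 but no Gfi1 were 31 of 93 (33.3%, 23.9 to 43.9) and 23 of 47 (48.9%, 34.1 to 63.9). These intervals overlap and cover counting error only. With Slc34a2 removed first and cells thinned to 25000 reads, the share with both was 26.9% on day 10 and 28.9% on day 14. Shares of cells need care here, because over the 5803 genes of at least 32 CPM and 20% of cells the median share was 18.8 percentage points lower on day 14 after thinning to 50000 reads and 6.62 points lower after thinning to 25000.

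Several genes that were high on days 8 and 10 were low on day 14. Ifitm1, an interferon-inducible membrane protein also found on early progenitors, stood at 64.2 CPM on day 0, at 568 and 1115 CPM on day 8, 622 CPM on day 10, 45.1 CPM on day 12 and 113 CPM on day 14. The log2 fold change was −2.46 (SE 0.54, adjusted p = 0.293 by edgeR), and 90 of 93 day 10 cells but 29 of 47 day 14 cells had a read. Serpina3g, an intracellular inhibitor of cysteine proteases, stood at 86 CPM on day 0, at 282 and 344 CPM on day 8, 365 CPM on day 10, 97.1 CPM on day 12 and 57.3 CPM on day 14, a log2 fold change of −2.67 (SE 0.32). Lcn2, the iron-binding neutrophil protein lipocalin 2, stood at 18.2 CPM on day 0, at 114 and 112 CPM on day 8, 160 CPM on day 10, 26.2 CPM on day 12 and 42.1 CPM on day 14, a log2 fold change of −1.93 (SE 0.28). For each of these genes the day 10 set was with the day 8 sets, and days 0, 12 and 14 were lower than all 3.

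Lcn2 is a gene of later neutrophils, but most of that list had too few reads. Of its 12 genes 3 were tested, and Ngp, Camp, Ltf and Ly6g were not among them. S100a8 stood at 200 CPM on day 10 against 35.6 CPM on day 14, with 44.8 and 416 CPM in the day 8 sets, and 1 cell held 55.5% of its day 10 reads. Lrg1, a secreted glycoprotein of neutrophils, stood at 38.1 CPM on day 10 and at or under 7.26 CPM in the other 5 sets, so that day 10 was the highest of the 6 sets.

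Of 5803 genes with at least 32 CPM and a read in at least 20% of cells on either day, 566 were beyond the yardstick on the lower side (9.75%). The 12 of them with the largest log2 fold changes were Car2, Pafah2, Apoe, Serpina3g, Ifitm1, Lrg1, Hdac6, Gm7676, Atp2c1, Pgrmc1, Nfil3 and Mitd1, from −2.91 to −2.02. Car2, carbonic anhydrase 2, stood at 29.9 CPM on day 0, at 122 and 205 CPM on day 8, 71.4 CPM on day 10, 14.0 CPM on day 12 and 9.44 CPM on day 14. Its log2 fold change was −2.91 in all kept cells and −1.61 in those with at most 25% of reads in Slc34a2. Pgrmc1, a haem-binding membrane protein, stood at 112 CPM on day 10, with a read in 73 of 93 cells, and at 26.9 CPM on day 14, with a read in 15 of 47. Apoe, apolipoprotein E, stood at 120 and 18.2 CPM, but 1 cell held 41.6% of its day 10 reads, the log2 fold change was −2.72 with thinning and −1.39 without, and its level was 153 CPM on day 0. Pafah2, which cleaves oxidised phospholipids, stood at 37.9 and 5.08 CPM.

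Several erythroid and basophil transcripts were lower on day 14, and others of those lineages were not. All 4 tested erythroid genes were lower, 3 beyond the yardstick, beside 9.34% of all genes tested. The median was −2.86, or −2.71 with Klf1 set to 3 reads. The erythroid transcription factor Klf1 stood at 13.4 CPM on day 10, in 6 of 93 cells, and had no read in 47 day 14 cells. A count of 0 allows a share of up to 6.38% of cells with a read at this depth, which is near the 6.45% of day 10. Set to 3 reads, Klf1 was 6.15-fold lower on day 14. Reads of 1 cell are not independent, and 1 cell can hold more than 3, so that value does not bound the difference. Klf1 also had no read on days 0 and 12, and stood at 14.6 and 26.4 CPM on day 8. Gata1 stood at 15.5 CPM on day 10 against 2.18 CPM on day 14, and Tfrc, the transferrin receptor of all dividing cells, at 75.3 and 69 CPM. Gfi1b encodes a transcriptional repressor found in erythroid and megakaryocytic cells. Its level was 21.4 CPM on day 10, in 5 of 93 cells, and 0.726 CPM on day 14, in 1 of 47 cells. The globin genes were not among the genes tested.

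Gata2, a factor of stem cells, mast cells and basophils, stood at 44.1 CPM on day 0, at 94.2 and 122 CPM on day 8, 43.6 CPM on day 10, 49.3 CPM on day 12 and 5.81 CPM on day 14. The log2 fold change was −2.90 (SE 0.48), and −1.67 among cells with at most 25% of reads in Slc34a2. Reads came from 18 of 93 day 10 cells, 1 of which held 40.2% of them, and from 3 of 47 day 14 cells. Of 5 tested basophil and mast cell genes, 2 were beyond the yardstick, both lower, beside 9.34% of all genes tested. Mcpt8, the basophil protease, stood at 155 and 43.6 CPM, with 1 cell holding 34.7% of the day 10 reads; among cells with at most 25% of reads in Slc34a2 its log2 fold change was −0.76, against −1.83 in all kept cells. Ms4a2, the β chain of the IgE receptor, stood at 15.5 CPM in 5 of 93 cells and 0.726 CPM in 1 of 47. Cpa3, the mast cell carboxypeptidase, stood at 176.5 and 187 CPM, with 1 cell holding 85.6% of the day 10 reads and 1 holding 84.4% of the day 14 reads. Hdc, histidine decarboxylase, stood at 206 and 189 CPM, and both were within the spread. A share of cells this small rests on few cells of 1 set, and 47 day 14 cells hold fewer of a rare kind than 93.

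Stem and multipotent progenitor genes were mixed. Of 19 tested, 7 had a higher and 12 a lower value on day 14, with 1 and 6 beyond the yardstick. Over all genes tested 11.9% were higher and 9.34% lower beyond it. The list median was −0.47. Beside Ifitm1 and Gata2 the lower members were Ifitm3 (333 and 204 CPM), the adhesion receptor gene Adgrg1 (197 and 92.9 CPM), the angiopoietin gene Angpt1 (13.9 and 3.63 CPM, with 59.3% of the day 10 reads in 1 cell) and Hlf (4.12 and 0.726 CPM). Adgrg1 measured 400 and 352 CPM on day 8, 155 CPM on day 0 and 155 CPM on day 12, so that day 14 was the lowest of the 6 sets. Ly6e, the most abundant member, stood at 2377 and 2827 CPM, within the spread. Meis1, a homeobox factor of stem cells, was the member on the higher side, at 49.7 and 110 CPM with a log2 fold change of 1.15 (SE 0.42). Among cells with at most 25% of reads in Slc34a2 that value was 0.40.

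Most ribosome biogenesis genes had a lower value on day 14, few of them beyond the day 8 spread. Of 29 tested, 21 had a lower and 8 a higher value, and the median was −0.35. Pes1, Rrp1b, Polr1b and Gnl3 were beyond the yardstick, all lower, which is 4 of 29 beside 9.34% of all genes tested. The median of the same list between the day 8 sets was −0.34, so a difference of this size also occurred between sets of 1 day. Ncl, nucleolin, stood at 976 CPM on day 0, at 2027 and 1521 CPM on day 8, 1142 CPM on day 10, 1010 CPM on day 12 and 780 CPM on day 14. Npm1, nucleophosmin, stood at 931 and 725 CPM, and Gnl3, the nucleolar GTPase nucleostemin, at 304 and 178 CPM. The summed level of the list was 7215 and 6119 CPM on day 8, 4882 CPM on day 10, 4379 CPM on day 12, 3708 CPM on day 14 and 4070 CPM on day 0. Myc, which drives such genes, stood at 414 and 430 CPM, within the spread.

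The enzymes that 5-FU acts on or through, and their neighbours in nucleotide and one-carbon metabolism, had a lower value in 16 of 19 cases, with a median of −0.27. Lower beyond the yardstick were 4 of the 19, beside 9.34% of all genes tested. Tyms, thymidylate synthase itself, stood at 155 CPM on day 0, at 170 and 147 CPM on day 8, 172 CPM on day 10, 159 CPM on day 12 and 155 CPM on day 14, and so differed less between days 10 and 14 than between the day 8 sets. Dut, dUTPase, stood at 360 and 317 CPM and Rrm2, the small subunit of ribonucleotide reductase, at 391 and 267 CPM. Mthfd2, a mitochondrial folate enzyme, was among those 4, at 112 and 106 CPM on day 8, 59.3 CPM on day 10 and 23.2 CPM on day 14, a log2 fold change of −1.35 (SE 0.31). Impdh1, of guanine nucleotide synthesis, stood at 178 and 100 CPM.

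Glucose transport and glycolysis genes were lower in 16 of 19 cases with a median of −0.31 (−0.29 between the day 8 sets). Of them 1, the hexokinase Hk1, was beyond the yardstick (134 and 60.3 CPM), beside 9.34% of all genes tested. Ldha, lactate dehydrogenase A, stood at 1287 CPM on day 0, at 2998 and 2451 CPM on day 8, 1937 CPM on day 10, 1516 CPM on day 12 and 1365 CPM on day 14, and Aldoa, aldolase A, at 1351 and 1187 CPM on days 10 and 14. Heat shock and chaperone genes were lower in 13 of 16 cases with a median of −0.36 (−0.20 between the day 8 sets). Beyond the yardstick 3 were lower and 2 higher, beside 9.34% and 11.9% of all genes tested. Hsp90ab1, the constitutive cytosolic HSP90, stood at 3551 and 2594 CPM, and Calr, calreticulin, at 2889 and 1914 CPM. The stress-inducible Hspa1a went the other way, at 39.7 and 95.1 CPM, while 10.3 and 9.54 CPM were measured on day 8. Amino acid stress genes were lower in 10 of 14 cases, with a median of −0.38 (−0.20 between the day 8 sets). Of the 14, 4 were beyond the yardstick, all lower, beside 9.34% of all genes tested.

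Replication genes beyond the yardstick and lower, and mitosis genes beyond it and higher, were about as frequent as over all genes tested (9.34% and 11.9%), and nothing is read from these counts about the lists. Of 44 DNA replication genes 4 were beyond the yardstick, all lower: the licensing factor Cdc6 (74 and 34.1 CPM), Mcm10 (88.7 and 54.4 CPM), the polymerase δ subunit Pold3 (76.3 and 37 CPM) and cyclin E2, Ccne2 (62.1 and 22.5 CPM). The 2 most abundant, Mcm6 and Mcm5, differed by −0.36 and 0.02. Of 41 mitosis genes 5 were beyond it on the higher side and 2 on the lower. The spindle protein Nusap1 stood at 74.5 and 159 CPM, Cenpf of the kinetochore at 23.2 and 54.4 CPM, and Prc1 of the central spindle at 53.6 and 90.7 CPM. Cdca3 stood at 151 and 254 CPM. Top2a and Cdk1, the most abundant of the list, differed by −0.11 and 0.13. The proliferation marker Mki67 stood at 146 and 170 CPM, within the spread. List medians were −0.09 for both, against −0.02 over all genes, and the mitosis median was 0.27 among cells with at most 25% of reads in Slc34a2.

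Antigen presentation genes of class I were higher in 12 of 14 cases with a median of 0.42 (0.29 between the day 8 sets). Of the 14, 3 were higher beyond the yardstick, beside 11.9% of all genes tested. H2-Q6 stood at 60.4 CPM on day 0, at 6.30 and 9.54 CPM on day 8, 6.19 CPM on day 10, 52.4 CPM on day 12 and 32.7 CPM on day 14. H2-Q7 followed at 9.28 and 26.9 CPM on days 10 and 14. These are near-identical copies, and reads may be split between them or lost, so their separate values are uncertain. H2-M3, which presents formylated peptides, stood at 20.4 and 44.3 CPM. The abundant members B2m, the shared light chain, and H2-D1 stood at 3677 and 5358 CPM and at 1257 and 1630 CPM, within the spread. The summed level was 4883 and 6798 CPM on day 8, 6866 CPM on day 10, 9022 CPM on day 14 and 9760 CPM on day 0.

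Interferon response genes did not share that direction. Of 21 tested, 15 were lower, 4 of them beyond the yardstick, beside 9.34% of all genes tested. The median was −0.70, or −0.49 with the 3 genes without day 14 reads set to 3 reads. Most genes of the list had few reads. The summed level of the list went the other way, from 2783 CPM on day 10 to 3136 CPM on day 14. The median cell gave it 0.2239% and 0.2415% of its reads. The antiviral sensor Oasl1 stood at 12.4 CPM on day 10, in 10 of 93 cells, and had no read on day 14 after thinning. Set to 3 reads, Oasl1 was 5.68-fold lower, a value that does not bound the difference. A second thinning left day 14 reads and a log2 fold change of −4.37. The day 14 cells that were not kept held 12 reads of Oasl1, in 2 cells. Rtp4, also without a day 14 read, was 4.14-fold lower when set to 3 reads, with the same limit. Among genes of at least 32 CPM on either day the list median was 0.33. Ifi209, on the higher side, stood at 32.2 and 118 CPM but at 21.9 and 1.0 CPM in the day 8 sets, and was not beyond the yardstick.

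Immediate early genes were higher in 11 of 13 cases, with a median of 0.54. Of the 13, 3 were higher beyond the yardstick, beside 11.9% of all genes tested. Fos, the AP-1 subunit, stood at 265 CPM on day 0, at 128 and 110 CPM on day 8, 132 CPM on day 10, 210 CPM on day 12 and 210 CPM on day 14, and Zfp36, a destabiliser of mRNAs, at 28.9 and 51.5 CPM on days 10 and 14. Nuclear Malat1, a long non-coding RNA, was also beyond the yardstick, at 280 and 475 CPM, and Neat1 was not, at 54.4 and 66.1 CPM. The part of nuclear RNA in these differences was not tested.

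**Figure D4:**
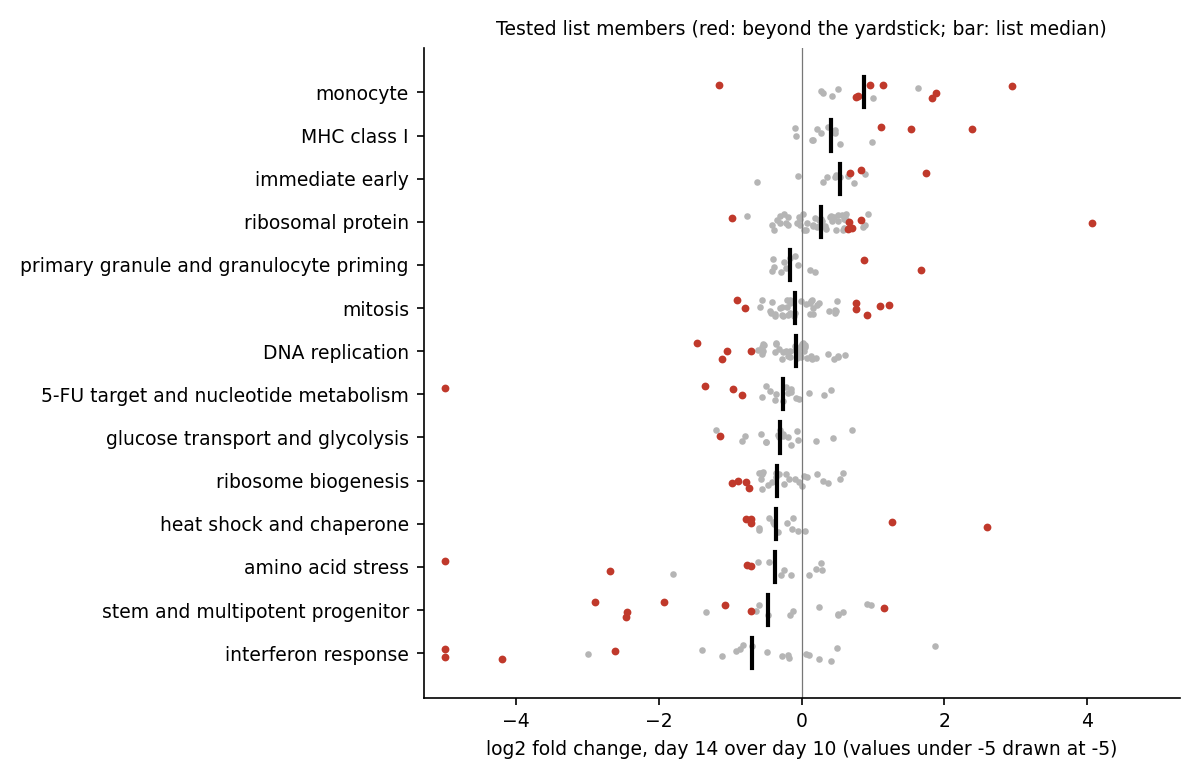
Log2 fold changes (day 14 over day 10) of the tested members of 14 gene lists; points are genes, red where beyond the yardstick, and black bars are list medians. The monocyte median lies at 0.87 and the medians of the ribosome biogenesis, glycolysis and chaperone lists lie between −0.36 and −0.31.

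The genes with the largest positive differences were of another kind. Of the same 5803 genes 652 were beyond the yardstick on the higher side (11.2%). The 12 of them with the largest log2 fold changes were AA474408, Mir6236, Lrrc4b, Gm27013, 4731419I09Rik, Caln1, Gm23406, Cdk14, Dmxl2, Gm20655, Hes1 and Gm37600, from 9.68 to 4.23. AA474408 and Mir6236 rested mainly on 1 cell each, which held 69.7% and 56.9% of their day 14 reads, and they differed greatly between the day 8 sets (62.7 and 2071 CPM, 549 and 5621 CPM). Dmxl2, a large scaffold protein of vesicle acidification at chr9:54365158-54501626 (GRCm38), stood at 126 CPM on day 0, at 36 and 97.9 CPM on day 8, 46.1 CPM on day 10, 53.9 CPM on day 12 and 1235 CPM on day 14. All 47 day 14 cells had a read of it, with a median of 25 reads, against 69 of 93 day 10 cells with a median of 2. Cdk14, a kinase that binds a membrane cyclin, stood at 5.41 and 155 CPM, and the synaptic adhesion gene Lrrc4b, with no known role in this lineage, at 1.55 and 108 CPM. Hes1, the Notch target, stood at 2.84 and 56.6 CPM. Gm20655 is annotated as antisense, and these libraries do not mark the strand.

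One ribosomal protein gene stood apart from its list in the same way. Rps28 stood at 61.2 CPM on day 0, at 14.1 and 41.7 CPM on day 8, 21.4 CPM on day 10, 23.1 CPM on day 12 and 359 CPM on day 14, a log2 fold change of 4.07 (SE 0.72). The list of 52 tested genes had a median of 0.28, with 5 higher and 1 lower beyond the yardstick. Over all genes tested 11.9% were higher and 9.34% lower beyond it. Its most abundant members were Rpl4 and Eef1a1, the latter a translation elongation factor that the list also holds. They differed by −0.22 and −0.41.

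Many genes on the higher side had levels that rose with the Slc34a2 share of single cells. Among the 652 genes higher beyond the yardstick, the median Spearman correlation across cells between a gene's CPM and the Slc34a2 share was 0.209 over the 93 day 10 cells and 0.496 over the 47 day 14 cells. The 566 genes on the lower side had medians of −0.12 and −0.33, and the 4585 genes within the yardstick −0.11 and −0.34. A correlation over 0.3 on day 14 was found for 393 of the 652 (60.3%), 0 of the 566 and 95 of the 4585 (2.07%). The genes were sorted into these classes by levels summed over the same day 14 cells. A gene raised in day 14 cells with a large share is therefore more often placed on the higher side. The day 14 contrast between classes is thus partly built in, and nothing is read from its size. The day 10 correlations come from other cells, although the day 10 sums also entered the sorting. Cells with a larger share keep fewer other reads after thinning, so the points share depth, and these correlations are descriptions.

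On day 14, Dmxl2 stood at 574 CPM in cells with at most 25% of reads in Slc34a2 and 1915 CPM in the others, and on day 10 at 39.7 and 133 CPM. Rps28 stood at 157 and 570 CPM on day 14, and on day 10 at 20.4 and 27.5 CPM. Meis1 stood at 47.3 and 176 CPM on day 14, and on day 10 at 36.6 and 252 CPM. Lineage genes divided otherwise, and not all alike. Ly6c2 stood at 5810 and 5860 CPM on day 14, and on day 10 at 1660 and 1005 CPM. Ifitm1 stood at 107 and 108 CPM on day 14, and on day 10 at 556 and 1450 CPM. Other lineage genes were lower in the day 14 cells with the larger share, with Mpo at 53430 and 27380 CPM, Irf8 at 654 and 395 CPM, F13a1 at 506 and 193 CPM and Cx3cr1 at 43.5 and 4.63 CPM. Elane stood at 24290 and 19420 CPM.

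When only cells with at most 25% of reads in Slc34a2 were used, 86 on day 10 and 20 on day 14, 6 lineage genes kept differences close to those in all kept cells, and others did not. The log2 fold change was 1.84 for Ly6c2, 1.21 for Irf8, 0.97 for Elane, −2.34 for Ifitm1, −2.88 for Serpina3g and −1.96 for Lcn2. Values nearer to 0 were found for Gata2 (−1.67 against −2.90), Mcpt8 (−0.76 against −1.83), Car2 (−1.61 against −2.91) and the erythroid median (−1.91 against −2.86). The value for Dmxl2 was 3.88, against 4.74 in all kept cells, and that for Rps28 was 2.97, against 4.07. This selection was added after the data were seen. With it, edgeR called 222 genes higher and 191 lower.

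**Figure D5:**
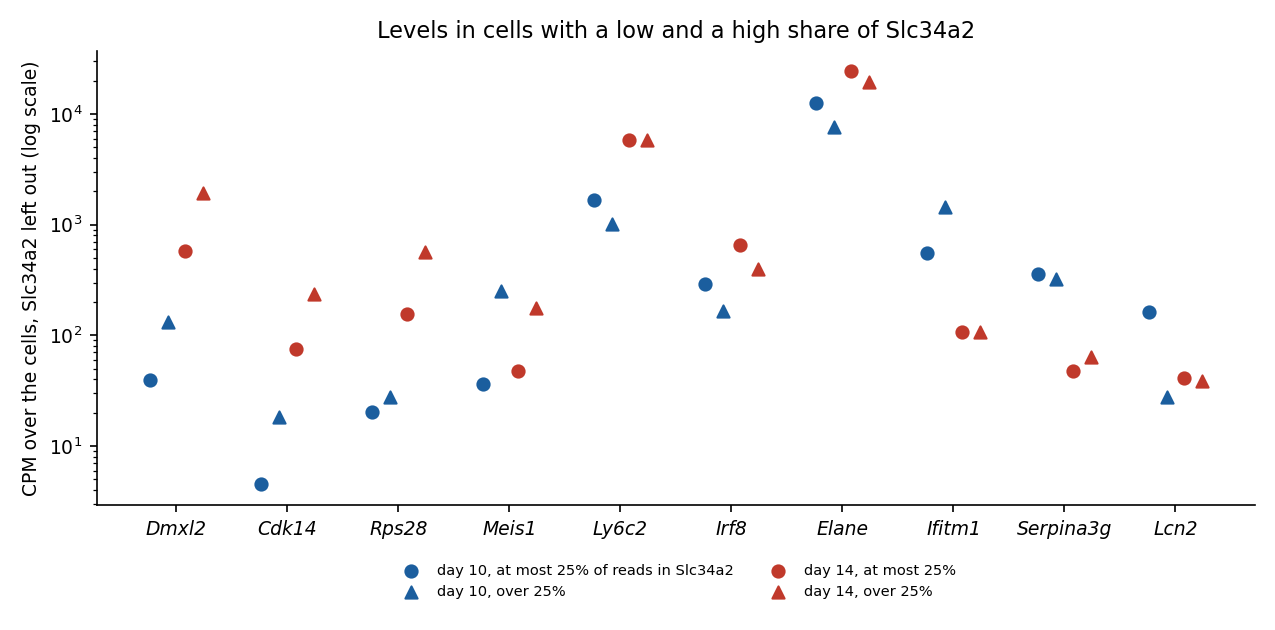
Levels (CPM, log axis) of 10 genes on day 10 (blue) and day 14 (red) in cells with at most 25% of reads in Slc34a2 (circles) and in the other cells (triangles). Dmxl2, Cdk14, Rps28 and Meis1 have their triangles above their circles on both days, whereas Ly6c2 and Ifitm1 have both red symbols at nearly the same height.

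Markers of other cells that the gate should lack moved partly with that share. Of the 9 genes of the T and NK cell list 2 were tested, both beyond the yardstick and higher: Trac (30.2 and 82.0 CPM) and Cd3g (2.32 and 11.6 CPM). The defining genes Cd3e, Cd3d, Lck and Prf1 had too few reads to be tested, and the median cell gave the whole list 0.00231% of its reads on day 10 and 0.00632% on day 14. Of the stromal and endothelial list 6 of 9 were tested and all 6 were higher, 4 beyond the yardstick, with a median of 1.56. Over all genes tested 11.9% were higher beyond it. The sum of the stromal and endothelial list was 94.9 CPM on day 10 and 201 CPM on day 14. The endothelial sialomucin gene Emcn (40.2 and 120 CPM) made up most of the day 14 sum. The defining genes Cxcl12, Col1a1 and Cdh5 were not among those tested. With at most 25% of reads in Slc34a2 the list median was 0.18, the Emcn difference 0.58 and the Trac difference 0.42. Macrophage, B cell, dendritic cell and megakaryocyte lists had 3, 2, 4 and 4 tested members, with 1 higher and 1 lower, 1 higher, 1 higher and 0 beyond the yardstick.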

How the data were processed

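The authors deposited raw counts of reads for every gene in every cell, with GSNAP, HTSeq 0.5.3p3 and the mm10 build named in the submitters' processing notes. The counts of PCR copies cannot be told from those of molecules, so intervals cover counting error only, and neither Smart-seq2 nor Nextera XT marks the strand. Of 574 labelled cells 573 had a column, and 1 unnamed column was not used. The 5 rows that name no gene (90.4% of all reads in the median kept cell) and 92 spike-in rows were left out of totals. Symbols came from GENCODE vM21 (GRCm38) for 45143 of 46078 gene rows.

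Cells with 50000 or more reads in genes and 1000 or more genes were kept. They were thinned to 50000 reads with a fixed seed, Slc34a2 was removed, and counts were summed by set. Genes tested passed edgeR's filterByExpr and were read in 10% or more of the kept cells of 1 set or more. The fit (edgeR 4.0.16, R 4.3.3, TMM, a mean per day, all 6 sets) had 1 residual degree of freedom, between the day 8 sets, which the labels number as replicates without saying that they came from separate mice. The prior had 4.32 degrees of freedom and the common dispersion was 0.0407. p-values were adjusted by Benjamini-Hochberg at 0.05. Tests were tried on simulated counts. A gene with 0 reads on day 14 was set to 3 reads over the set, which does not allow for many reads from 1 cell. Shares have exact 95% binomial intervals. Cells are not replicates and were not tested between days. Other software was limma 3.58.1, DESeq2 1.42.0, Python 3.11.15 with matplotlib 3.10.9, scipy 1.17.1, pandas 2.3.3 and numpy 2.4.6.

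The cells compared, the gene lists and the rules were chosen with earlier results of these data known. Genes named were the 12 largest fold changes in each direction among genes of at least 32 CPM and 20% of cells, filled from genes beyond the yardstick since none passed the test. Also named were the 2 most abundant members of each list described and a fixed set of lineage and cell cycle genes. Other genes named, Ctsh and Ifi209 among them, were chosen after their values were seen. Alternatives covered depth, cells, genes, scaling and the test.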

Additional observations from a re-analysis of the deposited data

How the results depend on the processing

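The count of genes called depended on nearly every choice. edgeR called 0 genes in each direction with Slc34a2 kept in totals, a second seed, cells of at least 4000 genes, 3 loci left out or no gene filter. It called 458 higher and 312 lower without thinning, 264 and 101 at 25000 reads, 1106 and 575 with no cell filter, 100 and 8 with equal cell numbers, 222 and 191 among cells with at most 25% of reads in Slc34a2, 41 and 4 with DESeq2 size factors, 226 and 51 with robust estimation, 267 and 84 with library size alone, 301 and 71 at 32 CPM, and 396 and 138 with days 8, 10 and 14 only. DESeq2 called 75 and 7. The robust fit and the Slc34a2 limit were added after seeing the data. Genes beyond the yardstick numbered 662 higher and 409 lower at the 99th percentile, 1755 lower at the 90th, 1831 lower without thinning, 2565 and 1879 with no cell filter, and 916 and 720 with equal cell numbers.

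List medians kept their sign in all settings run for 15 of 18 lists, and moved beyond the day 8 spread as follows. Without thinning they were −1.47 (erythroid), −0.40 (DNA replication) and −0.58 (5-FU). With no cell filter they were −1.48 (erythroid), −0.41 (DNA replication), −0.63 (ribosome biogenesis), −0.57 (5-FU), 2.19 (stroma) and 0.85 (TGF-beta). With equal cell numbers they were −2.26 (erythroid), −1.49 (basophil and mast cell) and 0.15 (mitosis). With at most 25% of reads in Slc34a2 they were −1.91 (erythroid), 0.27 (mitosis), 0.18 (stroma) and 0.80 (TGF-beta). Stroma stood at 0.76 with 25000 reads and 1.10 with 4000 genes, and interferon at 0.33 with 32 CPM, where fewer genes were tested. The causes of the other shifts were not tested.

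Named genes that reversed had values near 0 in the fit as reported, with Cxcl10 as the exception (1.44 with equal cell numbers). With at most 25% of reads in Slc34a2 they were Mpo (0.0856), Cebpa (0.0769), Cd34 (0.169), Tyms (0.138) and Top2a (0.0787). With no cell filter they were Prtn3 (−0.0567), Fcgr3 (−0.166), Myc (−0.133), Mki67 (−0.152), Mcm5 (−0.268) and Cdk1 (−0.133). Without thinning they were Fcgr3 (−0.0801), Myc (−0.0821), Mki67 (−0.0732), Mcm5 (−0.189) and Top2a (0.0241). With a second seed they were Fcgr3 (−0.083), Myc (−0.037), Cpa3 (−0.0347), Mcm5 (−0.064) and Top2a (0.142). With equal cell numbers they were Fcgr3 (−0.0138), Cpa3 (−0.727), Hdc (0.069), Tfrc (0.0698) and Top2a (0.153). With 25000 reads they were Cpa3 (−0.214), Hdc (0.0103), Tfrc (0.0841) and Top2a (0.0464). With no gene filter they were Fcgr3 (−0.0831), Myc (−0.0669), Cpa3 (−0.043) and Mcm5 (−0.0989), and with library size alone Mcm5 (−0.00487).

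No paired analysis was possible because days 10 and 14 have 1 set each and share fewer than 2 replicate numbers with any other group. Leaving out either day 8 set left no residual degrees of freedom, so that it gave values and no test.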

Other observations

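The 49 day 14 cells under the read minimum entered no comparison. Together they held 484418 reads outside Slc34a2, and their median cell had 30208 reads in genes. In CPM of those reads, Ly6c2 stood at 6082, Elane at 15010, Mpo at 23860, Ifitm1 at 107 and Irf8 at 240. Dmxl2 stood at 4199 and Cdk14 at 477, above the kept day 14 cells. Car2 and Lrg1 had no read.

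Genes with the smallest p-values in the edgeR fit, chosen after their values were seen and not below the adjusted threshold, included the chemokine Cxcl10, which had 37 CPM on day 0, 8.06 and 10.04 CPM on day 8, 161 CPM on day 10, 11.9 CPM on day 12 and, on day 14, 15.2 CPM. They also included the transcription factor Trps1 (49.5 and 871 CPM on days 10 and 14) and the acetyltransferase Crebbp (66 and 314 CPM). With the same number of cells in every set the Cxcl10 difference was 1.44, against −3.40 with all kept cells. Among cells with at most 25% of reads in Slc34a2 the Trps1 difference was 3.0, against 4.14 in all kept cells, and the Crebbp difference 1.39, against 2.25.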
